A study of Mus musculus with 6 samples.

Results

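The Notch receptors, ligands and targets described here are 10 mouse genes: Notch1, Notch2, Notch3, Dll1, Dll3, Lfng, Nrarp, Hes5, Hes7 and Hey1. They were taken as every probe set that the platform annotation gives exactly 1 gene symbol, that symbol being 1 of the 10. This gave 16 probe sets of the 45101 on the array. Of these, 14 passed a filter on low values, and all 10 genes kept at least 1 probe set, among 12628 genes measured in all. The samples were sorted from mouse embryos at embryonic day 8.5, with a median of 6 somites. All embryos came from litters heterozygous for the Noto-GFP reporter on a mixed 129S3;ICR background, of both sexes. Tissue behind the boundary of somites SI and SII was pooled from 23, 39 or 52 embryos and dissociated, and each pool gave 1 array of GFP-positive and 1 array of GFP-negative cells. The sorts yielded roughly 2600, 4300 and 6600 cells with GFP from pools 1, 2 and 3. The GFP-negative array of a pool therefore holds the remaining cells of the same embryos, a mixture of cell types, which carry the same reporter allele.

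Notch signalling passes between touching cells. Ligands of the Delta and Jagged families on 1 cell bind a Notch receptor on its neighbour, the receptor is cut within the membrane, and its inner part enters the nucleus and joins the DNA-binding protein RBPJ to switch on targets such as the Hes and Hey repressors. In the tail of the embryo the pathway is known above all from the presomitic mesoderm, where Hes7, Lfng and Nrarp belong to the segmentation clock and Dll1 and Dll3 are required for somite borders. In the node, the source of the notochord, Notch signalling is known to control Nodal expression and left-right asymmetry.

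GFP-positive cells had more RNA of most of these genes. Limma was fitted over all kept probe sets, with p-values adjusted over all genes. At an adjusted p under 0.05, 4 of the 10 genes rose (Notch1, Nrarp, Dll1 and Hey1) and 0 fell. Over all genes measured, 2.60% rose and 1.41% fell by the same test. Counted over probe sets, 3 of the 14 kept rose (1 each of Notch1, Nrarp and Dll1, but not that of Hey1), beside 1.26% of all kept probe sets. With the pool as a block, which compares the cells within each pool, 7 of the 10 rose (also Hes7, Dll3 and Hes5), beside 8.40% of all genes. For the same 7 genes every GFP-positive array lay above every GFP-negative array, which was so for 15.6% of all genes. Within all 3 pools 9 of the 10 were higher in GFP-positive cells, the exception being Lfng, beside 28.4% of all genes. The median log2 fold change of the 10 was 0.93, against 0.01 over all genes. The 10 genes were chosen with earlier results of these data known, so these comparisons with all genes describe the 10 and do not test them. Fold changes are on the scale of log2(intensity + 32), which understates changes of dim genes, and an intensity given with an error is a mean ± SD (n = 3). In bulk samples, fewer cells of a type and less RNA per cell cannot be told apart.

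**Figure D1:**
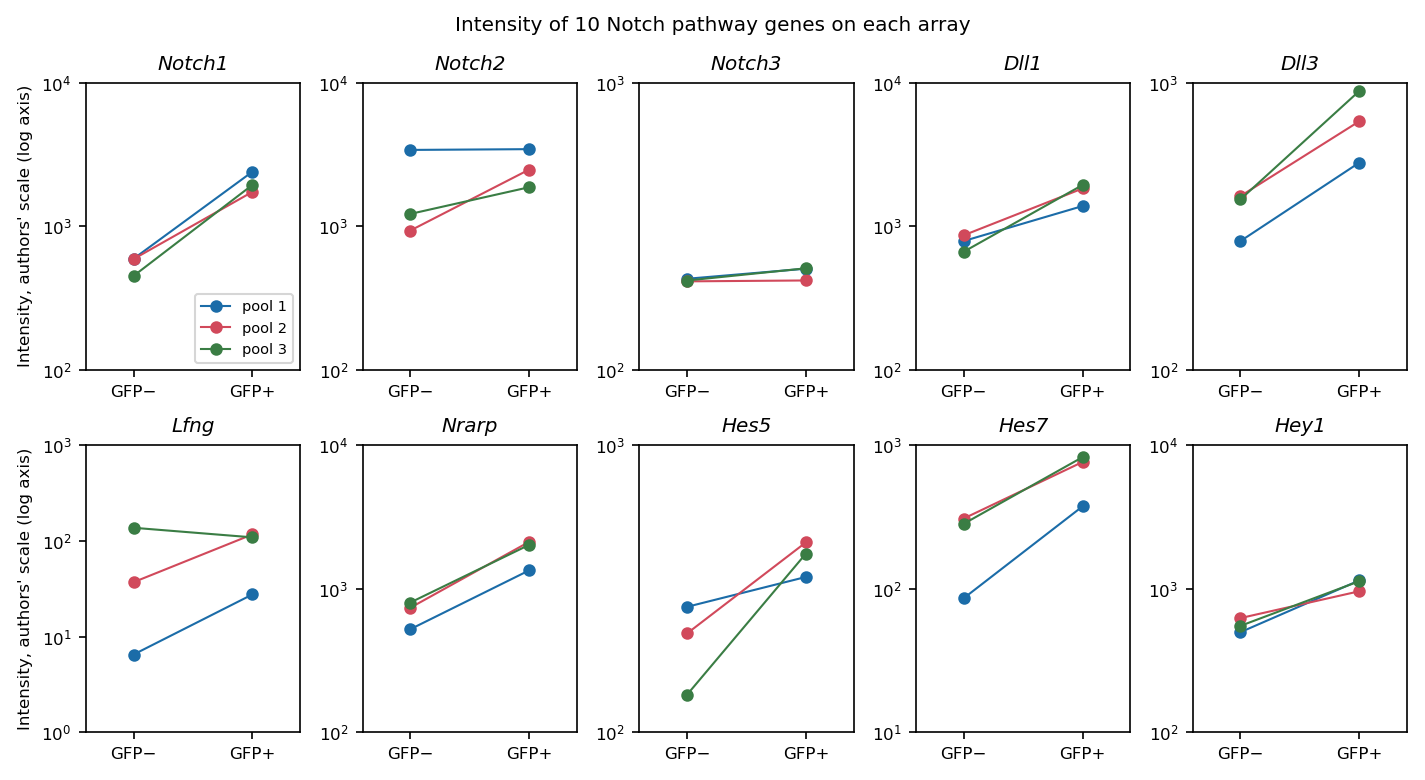
Intensity, as scaled by the authors, of the probe set with the highest mean for each of the 10 genes, on a log axis; each point is 1 array, and a line joins the GFP-negative (GFP−) and GFP-positive (GFP+) arrays of a pool. The 3 GFP-positive points of Notch1, Dll1, Dll3, Nrarp, Hes5, Hes7 and Hey1 lie above all 3 GFP-negative points, while those of Notch2, Notch3 and Lfng overlap.

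The arrays of pool 1 stood apart from the others in RNA quality. Their ratios of 3′ over 5′ signal were 14.0 and 15.4 for the Gapdh control and 14.9 and 22.7 for beta-actin, while the other 4 arrays lay between 1.60 and 2.22 and between 1.90 and 2.75. Results are therefore also given without pool 1. On that basis 8 of the 10 genes rose, all but Notch3 and Lfng, beside 19.5% of 11762 genes. The targeted locus could not be used to check the sort, since Noto has no probe set named here, but 5 of 5 measured genes of node and notochord rose. Their summed intensity was 6728 to 9117 on GFP-positive and 152 to 569 on GFP-negative arrays, of which Shh alone made 4660 to 5774 and 47.0 to 418. The 3 largest changes among the 5 genes were log2 fold changes of 4.45 ± 0.58 (SE) for the ligand Shh, 4.13 ± 0.28 for Foxa1 and 3.64 ± 0.24 for Foxa2.

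Notch1, the receptor known from presomitic mesoderm and from arterial endothelium, showed the largest change of the 10. Its probe set 1418634_at read 2397, 1736 and 1940 on the GFP-positive arrays of pools 1, 2 and 3, and 594, 591 and 451 on the GFP-negative arrays. The lowest GFP-positive array was thus well clear of the highest GFP-negative one, and the 3 arrays of each group lay close together. Its log2 fold change was 1.83 ± 0.22 (SE), or 3.56-fold, with an adjusted p of 0.00466 over genes, and Notch1 ranked 70 of 12628 genes by increase. Within pools the log2 difference was 1.96, 1.51 and 2.03, higher in 3 of 3. The call was kept without pool 1 (1.77, adjusted p = 0.000127). It was lost without pool 2 (1.99, adjusted p = 0.169) and without pool 3 (1.73, adjusted p = 0.138), fits in which 3 and 25 of all genes rose. It held without any 1 array.

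A second probe set of Notch1 gave a smaller value. Probe set 1418633_at was far dimmer, at 66.1, 124 and 145 on GFP-positive arrays and 40.7, 95.1 and 124 on GFP-negative arrays. Both arrays of pool 1 were the lowest of their group, and the groups overlapped. Its log2 fold change was 0.31 ± 0.34 (SE, adjusted p = 0.663 over probe sets), with the same sign in all 3 pools. Taking the mean of both probe sets for the gene gave 1.07, and the call was kept.

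Notch2, a receptor with broad embryonic expression, was bright in both groups. Probe set 1455556_at read 3437, 2479 and 1868 on GFP-positive and 3395, 932 and 1217 on GFP-negative arrays. Both arrays of pool 1 were the highest of their group and nearly equal, while the GFP-positive array was clearly higher in pools 2 and 3. The log2 fold change was 0.67 ± 0.45 (SE, adjusted p = 0.419), with a 95% interval of -0.36 to 1.70, and within pools 0.02, 1.38 and 0.60. Without pool 1 the value was 0.99 (adjusted p = 0.00314), and without the GFP-negative array of pool 1 it was 1.22 (adjusted p = 0.0155), and Notch2 passed in no alternative that kept that array; whether RNA quality had a part in this was not tested. The other probe set of Notch2, 1451889_at, failed the filter, with 2 of 6 arrays at or above the 40th percentile of their array. It read 13.4, 5.74 and 7.96 on GFP-positive and 3.04, 25.3 and 96.3 on GFP-negative arrays, in the opposite direction in pools 2 and 3.

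Notch3, the receptor best known from mural cells of vessels, showed almost no difference. Probe set 1421965_s_at read 225, 205 and 226 on GFP-positive arrays and 208, 203 and 205 on GFP-negative arrays, values that overlap. Its log2 fold change was 0.08 ± 0.19 (SE, adjusted p = 0.84), with a 95% interval of -0.36 to 0.51. The dim probe set 1421964_at, at 16.5 to 25.1 and 7.26 to 36.4, had -0.03 ± 0.21. Set on the same arrays, the increase of Notch1 exceeded that of Notch3 by 1.75 on the log2 scale (1.86, 1.50 and 1.91 within pools) and that of Notch2 by 1.16 (1.94, 0.12 and 1.43). In an exact two-sided permutation test each of these 2 comparisons gave p = 0.1 (adjusted p = 0.1), the smallest that 3 against 3 arrays allow. The test ignored the pairing of arrays by pool and could not have given a p under 0.05, so it decides neither comparison.

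The Delta ligands Dll1 and Dll3 were higher in GFP-positive cells. Dll1, which activates Notch receptors on neighbouring cells, read 1382, 1832 and 1937 on GFP-positive and 789, 865 and 665 on GFP-negative arrays. All 3 GFP-positive arrays were above the GFP-negative ones, and the log2 difference was smallest in pool 1 (0.78) and largest in pool 3 (1.50), with 1.06 in pool 2. This made a log2 fold change of 1.11 ± 0.22 (SE), or 2.16-fold, with an adjusted p of 0.0296. The value was 1.28 without pool 1 (adjusted p = 0.000439), while the call was lost without pool 2 or 3 (adjusted p = 0.610 and 0.554). It was also lost without the GFP-positive array of pool 2 or 3 (0.173 and 0.185) or the GFP-negative array of pool 2 or 3 (0.110 and 0.118), with values of 0.92 to 1.20 in these 6 fits.

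Dll3, a divergent Delta protein that acts inside the cell and does not activate Notch receptors on neighbours, had a like difference. Its intensities were 527, 734 and 935 on GFP-positive and 281, 403 and 392 on GFP-negative arrays, with no overlap. Both arrays of pool 1 were the lowest of their group, so the spread within each group was wide while the 3 pools gave similar differences (0.84, 0.82 and 1.19). The log2 fold change of 0.95 had an SE of 0.27 and did not pass without the block (adjusted p = 0.0882). With the pool as a block the SE was 0.17 and Dll3 rose (adjusted p = 0.0118), and without pool 1 it had 1.00 (adjusted p = 0.00146).

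**Figure D2:**
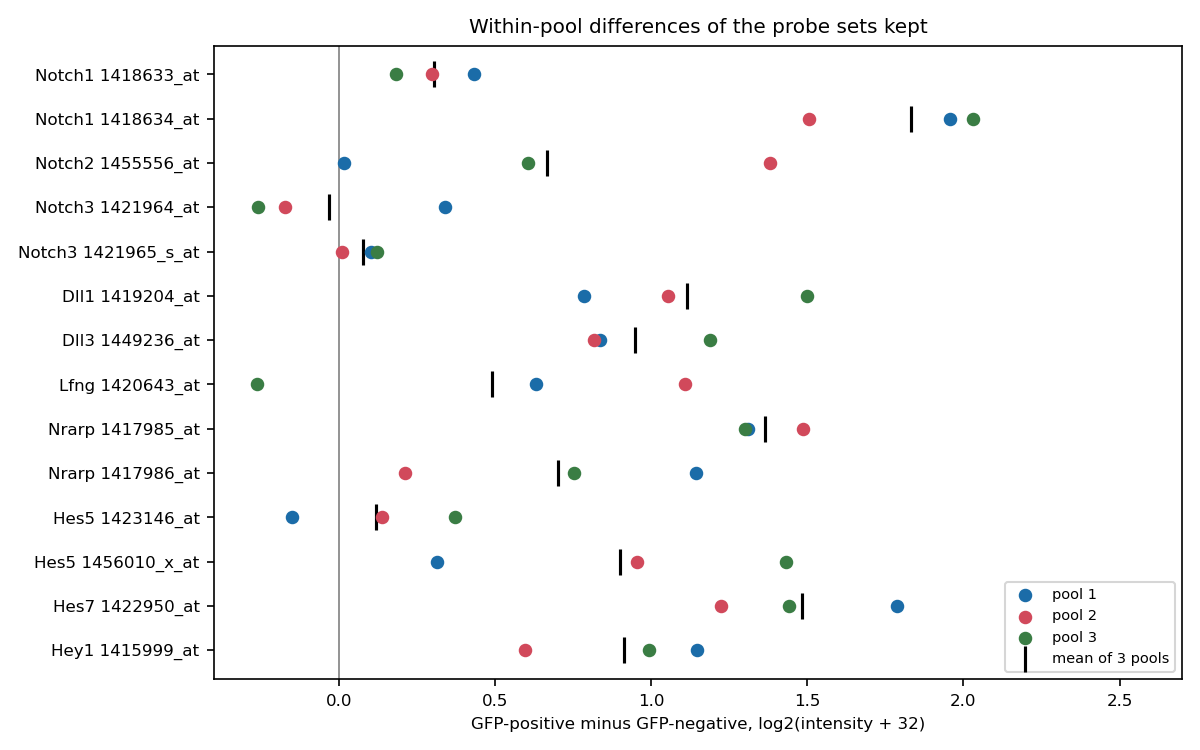
Difference between the GFP-positive and the GFP-negative array of each pool, in log2(intensity + 32), for the 14 probe sets kept; points are pools 1 to 3 and the black mark is their mean. The bright probe sets of Notch1, Nrarp and Hes7 lie above 1 in all 3 pools, and Lfng and the dim probe sets of Notch3 and Hes5 cross 0.

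Nrarp, an ankyrin repeat protein that is induced by Notch and blocks the nuclear receptor complex, rose with Notch1. Probe set 1417985_at read 1342, 2120 and 2020 on GFP-positive and 522, 737 and 801 on GFP-negative arrays. Every GFP-positive array was higher, and of the 10 genes Nrarp had the second most even difference between pools after Notch3, at 1.31, 1.49 and 1.30 (SD 0.10). Nrarp rose by 1.37 ± 0.26 (SE) on the log2 scale, or 2.58-fold, with an adjusted p of 0.0280, and with the block 1.37 ± 0.16 (adjusted p = 0.00209). Probe set 1417986_at read 256, 529 and 593 against 98.4, 453 and 339, with overlap, at 0.70 ± 0.50 (adjusted p = 0.479 over probe sets). The mean of both probe sets gave 1.03 and did not pass (adjusted p = 0.144). The call on the brighter probe set was lost without pool 2 or 3 (0.555 and 0.324). It was also lost without the GFP-positive array of pool 2 or 3 (0.157 and 0.161) or the GFP-negative array of pool 2 or 3 (0.112 and 0.0661).

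Lfng, the Fringe glycosyltransferase that changes which ligands Notch responds to, gave no stable difference. Probe set 1420643_at was dim, at 27.6, 117 and 109 on GFP-positive and 6.50, 37.0 and 137 on GFP-negative arrays. The groups overlapped, and pool 3 ran the other way from pools 1 and 2 (log2 differences of 0.63, 1.11 and -0.26). As a log2 fold change this was 0.49 ± 0.54 (SE, adjusted p = 0.632), with a 95% interval of -0.75 to 1.73. Without the GFP-negative array of pool 1 it was -0.0040, and without that of pool 3 it was 1.06. The other probe set of Lfng, 1449943_at, read at most 2.29 on any array and failed the filter.

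Of the target genes, Hes7, the oscillating repressor of the segmentation clock, had the largest fold change. It read 375, 763 and 824 on GFP-positive and 85.9, 308 and 283 on GFP-negative arrays. The groups did not overlap, but both arrays of pool 1 were lower than those of their group in pools 2 and 3, and the GFP-positive array of pool 1 was not far above the GFP-negative arrays of the other pools. The log2 fold change of 1.48 ± 0.45 (SE), or 2.80-fold, did not pass without the block (adjusted p = 0.107). Within pools the differences were 1.79, 1.22 and 1.44, and with the block Hes7 rose by 1.48 ± 0.18 (adjusted p = 0.00238). Without pool 1 the value was 1.33 (adjusted p = 0.000245).

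Hey1, a related repressor that many tissues express in response to Notch, rose. Its intensities were 1143, 960 and 1129 on GFP-positive and 498, 625 and 551 on GFP-negative arrays, tight within each group and apart between them. Hey1 had a log2 fold change of 0.91 ± 0.20 (SE), or 1.88-fold, with an adjusted p of 0.0454, close to the threshold. Within pools it was 1.15, 0.60 and 0.99, higher in 3 of 3. Adjusted over probe sets, Hey1 did not pass (adjusted p = 0.0643). The call was lost without the GFP-positive array of pool 1, 2 or 3 (adjusted p = 0.0788, 0.168 and 0.231) and without the GFP-negative array of pool 2 or 3 (0.140 and 0.147). It was also lost without pool 2 or 3 (0.642 and 0.603) and with no filter on low values (0.0610), while its value stayed between 0.79 and 1.07 in all alternatives.

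Hes5, a Notch target of neural progenitors, differed between its probe sets. Probe set 1456010_x_at, of a type that can also bind related sequences, read 347, 459 and 419 on GFP-positive and 273, 221 and 135 on GFP-negative arrays. The groups did not overlap, and the difference was smallest in pool 1 (0.31, 0.96 and 1.43). Its log2 fold change of 0.90 ± 0.27 (SE) did not pass without the block (adjusted p = 0.103). It rose with the block (adjusted p = 0.0349), without pool 1 (1.19, adjusted p = 0.0025) and without the GFP-negative array of pool 1 (1.09, adjusted p = 0.0182). Probe set 1423146_at read 35.8, 66.7 and 57.2 against 43.3, 57.6 and 36.9, with overlap, at 0.12 ± 0.21. The mean of both was 0.51 (adjusted p = 0.183).

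The promoters of 9 of the 10 genes, all but Hey1, were found in a RefSeq table (GRCm38.p6), which gives 250 bases before to 50 after each start; Dll1 has 2, so 10 sequences were searched. TGGGAA, the core of the site bound by RBPJ, was looked for on both strands, where the other strand reads TTCCCA. It was found in 3 of the 10, those of Lfng, Hes5 and Hes7, against 25.6% of 32851 promoters, a share near that background. Lfng and Hes5 each held 2 sites, as did 3.79% of all promoters at 2 or more. These 3 sequences are shown because they are the promoters with a match; capitals mark it, and base 251 is the start.
Lfng (chr5:140607091-140607390, plus strand): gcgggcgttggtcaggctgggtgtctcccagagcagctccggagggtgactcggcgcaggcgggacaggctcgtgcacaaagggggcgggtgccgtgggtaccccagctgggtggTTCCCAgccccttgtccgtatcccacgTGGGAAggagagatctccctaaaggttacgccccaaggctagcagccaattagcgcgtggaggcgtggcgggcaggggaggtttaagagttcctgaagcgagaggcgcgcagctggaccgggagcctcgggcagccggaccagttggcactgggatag
Hes5 (chr4:154960673-154960972, plus strand): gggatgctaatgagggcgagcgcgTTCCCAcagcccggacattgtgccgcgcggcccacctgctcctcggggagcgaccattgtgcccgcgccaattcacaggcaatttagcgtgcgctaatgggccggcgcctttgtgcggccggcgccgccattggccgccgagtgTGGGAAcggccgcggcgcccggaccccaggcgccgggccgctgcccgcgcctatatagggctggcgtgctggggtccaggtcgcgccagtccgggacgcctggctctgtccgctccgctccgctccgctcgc
Hes7 (chr11:69120203-69120502, plus strand): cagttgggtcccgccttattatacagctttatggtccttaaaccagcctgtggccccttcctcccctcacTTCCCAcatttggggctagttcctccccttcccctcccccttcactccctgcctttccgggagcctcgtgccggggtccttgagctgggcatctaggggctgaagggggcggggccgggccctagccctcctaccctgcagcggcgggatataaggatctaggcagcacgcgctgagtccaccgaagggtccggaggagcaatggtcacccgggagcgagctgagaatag
In Lfng the matches began 135 and 108 bases before the start, in Hes5 226 and 82 and in Hes7 180. CACGNG, which covers sites that Hes and Hey repressors can bind, was found in 7 of the 10 promoters on either strand (CNCGTG on the other), against 27.5% of all. Lfng held 3 such matches and Hes7 held 2, and 7.20% of all promoters held 2 or more. Nrarp, Notch2, Notch3 and both promoters of Dll1 held 1 each, and those of Notch1, Dll3 and Hes5 held 0. In Lfng the CACGNG match 112 bases before the start overlaps the TGGGAA match there. Of the 3 genes with a TGGGAA match, Hes5 and Hes7 rose with the block and Lfng did not pass. Of the searched genes without a match, Notch1, Dll1, Dll3 and Nrarp rose with the block, and Notch2 and Notch3 did not pass. A match is a description of letters only.

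Few genes of the wider pathway, a list also chosen with earlier results of these data known, changed. Of 47 other genes listed, 39 were measured, and in limma 0 rose and 0 fell over all genes; before adjustment 5 had p under 0.05 and a positive sign, and 6 a negative one. Their median log2 fold change was 0.01, the same as over all genes to this precision, and 20 of 39 were positive. With the pool as a block 4 rose (Notch4, Neurl1a, Hes1 and Hes6) and 2 fell (Dll4 and Dlk1), beside 8.40% and 6.76% of all genes. Adjusted over probe sets with the block, Hes6 (adjusted p = 0.0548), Dll4 (0.0540) and Neurl1a (0.0536) did not pass. Without pool 1, 7 rose and 8 fell, beside 19.5% and 17.9%.

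The other Hes and Hey factors differed among themselves. Hes1, a Notch target in many tissues, had 326 ± 24.7 (SD, n = 3) on GFP-positive and 193 ± 12.5 on GFP-negative arrays. Its log2 fold change of 0.67 ± 0.20 (SE, adjusted p = 0.0983) was even across pools, at 0.74, 0.62 and 0.65, and with the block its adjusted p was 0.0316. Hes6, a relative that counters Hes1, had 115 ± 5.11 and 64.1 ± 11.9, with 0.61 ± 0.19 (adjusted p = 0.115, and 0.0442 with the block). Its probe set, 1436050_x_at, is of the type that can also bind related sequences. The fold changes of Hey2 and Heyl were 0.02 and -0.16.

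Among other ligands and receptors the signs were mixed. Dll4, the Delta ligand of arterial endothelium, had 19.2 ± 4.42 (SD, n = 3) on GFP-positive and 52.3 ± 18.1 on GFP-negative arrays, at -0.70 ± 0.20 (SE, adjusted p = 0.0982, and 0.0435 with the block). Notch4, a receptor of endothelium, was dim in both, at 50.6 ± 15.1 and 20.8 ± 6.95, with 0.64 ± 0.20 (adjusted p = 0.109, and 0.0352 with the block). Both lie near the array medians of 19.8 to 28.0 in 1 group, where a value may be background. Probe sets 1456263_at and 1436901_at of Notch4 failed the filter. The first ran in the opposite direction, at 3.65, 12.6 and 6.14 on GFP-positive and 14.5, 22.9 and 18.4 on GFP-negative arrays. The second read at most 9.87 on any array. Dlk1, a non-canonical ligand, had -1.77 ± 0.56 (adjusted p = 0.116, and 0.0149 with the block). Its differences were -0.57, -2.60 and -2.14 in pools 1, 2 and 3. Jag1, a Jagged ligand, had 0.16 ± 0.23 on its brightest probe set, whereas its other 2 kept probe sets had -0.60 and -1.17. The last of these, 1421106_at, passed over probe sets with the block (adjusted p = 0.0490). Jag2 had -0.10.

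Among genes of receptor handling none passed without the block, and with it Neurl1a alone did over genes. Over probe sets with the block, Neurl1a did not pass (adjusted p = 0.0536). A dim probe set of the cleavage gene Adam10, 1450104_at, passed there at -0.68 (adjusted p = 0.0429). The other kept probe sets of Adam10 had -0.59 and 0.39. Rbpj, the DNA-binding partner of the receptor, had 992 ± 244 (SD, n = 3) on GFP-positive and 1559 ± 84.8 on GFP-negative arrays, at -0.66 ± 0.22 (SE, adjusted p = 0.136), and its 3 probe sets gave -0.66 to -0.70. The value passed without pool 1, at -0.89 (adjusted p = 0.00153). Snw1, a nuclear cofactor chosen after its value was seen, had 0.74 ± 0.42 (adjusted p = 0.343), and 1.21 without pool 1 (adjusted p = 0.000263); its other 2 kept probe sets had 0.05 and 0.06. The coactivator Maml1 had 0.46 ± 0.21 (adjusted p = 0.247). Of the cleavage genes, the sheddase Adam17 had -0.60 ± 0.22 (adjusted p = 0.167) and Aph1a, of gamma-secretase, -0.86 ± 0.54 (adjusted p = 0.385); the other 2 probe sets of Aph1a were positive. Pofut1, which adds the fucose that Fringe extends, had 0.60 ± 0.22 (adjusted p = 0.164), and the Fringe enzyme Mfng had -0.33 ± 0.20. Neurl1a, a ubiquitin ligase that promotes ligand uptake, had 0.60 ± 0.18 (adjusted p = 0.101, and 0.0430 with the block). Numbl, a relative of the Notch inhibitor Numb, had -0.48 ± 0.15 (adjusted p = 0.120) and was dim, at 14.8 ± 1.36 and 33.3 ± 7.02.

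**Figure D3:**
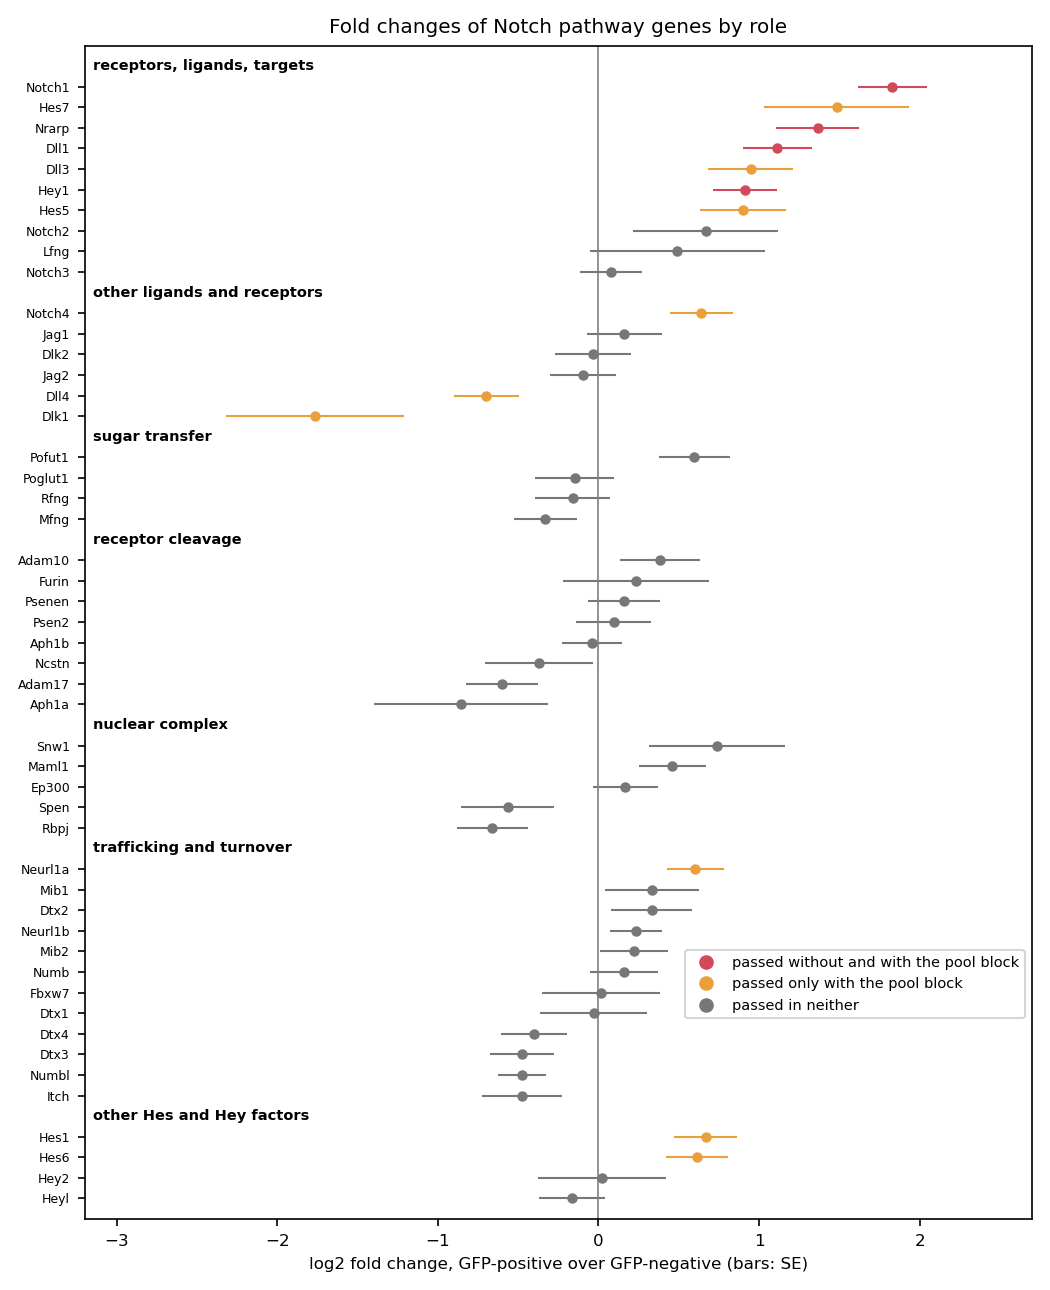
Log2 fold changes of the 10 genes and of 39 further pathway genes by role, with SE bars; red genes passed without and with the pool as a block, orange genes only with it, and grey genes in neither. All 10 genes at the top lie right of 0, from 0.08 for Notch3 to 1.83 for Notch1, while the other roles lie on both sides.

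Markers of other cell types moved between the same samples. Of 14 presomitic mesoderm and somite genes measured, none of them among the 10, 5 rose (Pcdh8, Tcf15, Ripply2, Foxc1 and Meox1) and 0 fell. On the brightest kept probe set of each, 14 of 14 had positive fold changes, from 0.18 to 1.95 with a median of 0.97. Uncx passed the filter only through its 3 GFP-positive arrays (25.4 to 43.5, against 4.29 to 10.8), so its sign is not independent of the filter. Pax3 had 2 other kept probe sets, at 0.03 and -0.66. The last, 1420389_at, passed over probe sets without pool 1, at -1.04 (adjusted p = 0.0134). The summed intensity of the 14 genes was 7455 to 11010 on GFP-positive and 3066 to 5856 on GFP-negative arrays, so these groups did not overlap. Bright genes weigh most in this sum. Rspo3, whose own groups overlapped, read 2154 to 5412 on GFP-positive and 1185 to 3638 on GFP-negative arrays, and Pcdh8 1788 to 2095 and 404 to 569. Of the defining genes of presomitic mesoderm, Tbx6 had 198 and 116, Mesp2 160 and 56.2 and Msgn1 only 26.3 and 14.6 as group means, and no log2 fold change of these 3 passed. With the block, 11 of 14 rose, among them Uncx, Tbx6 and Mesp2, though Tbx6 did not pass over probe sets (adjusted p = 0.0540). Since Notch1, Dll1, Dll3, Hes7, Lfng and Nrarp are also genes of presomitic mesoderm, the part of such cells in their values was not tested.

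Neural plate and endothelial markers showed other patterns. Of 7 neural plate genes measured, 0 passed in limma (before adjustment, 2 positive and 1 negative had p under 0.05). Of the 2 positive, Nkx6-1 passed the filter only through its GFP-positive arrays. The summed intensities of the 7 overlapped, at 1163 to 1365 on GFP-positive and 811 to 1378 on GFP-negative arrays, but only through the GFP-negative array of pool 1. In pools 2 and 3 the sums were 1163 and 1263 on GFP-positive and 876 and 811 on GFP-negative arrays. Without pool 1, 2 of 6 measured rose (Irx3 and Sox2) and 1 fell (Pax6), beside 19.5% and 17.9% of all genes. With the block 2 passed: Irx3 rose (adjusted p = 0.0343) and Pax6 fell (adjusted p = 0.0380). The part of neural cells in the values of Hes5 was not tested. Of 7 endothelial genes measured, 0 rose and 6 fell (Kdr, Tek, Etv2, Sox7, Flt1 and Esam; with the block also Cdh5, adjusted p = 0.0382), and the sums were 204 to 397 on GFP-positive and 1454 to 2065 on GFP-negative arrays. Notch1, Hey1, Notch4 and Dll4 are also expressed in endothelium, and the part of such cells in their values was not tested.

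**Figure D4:**
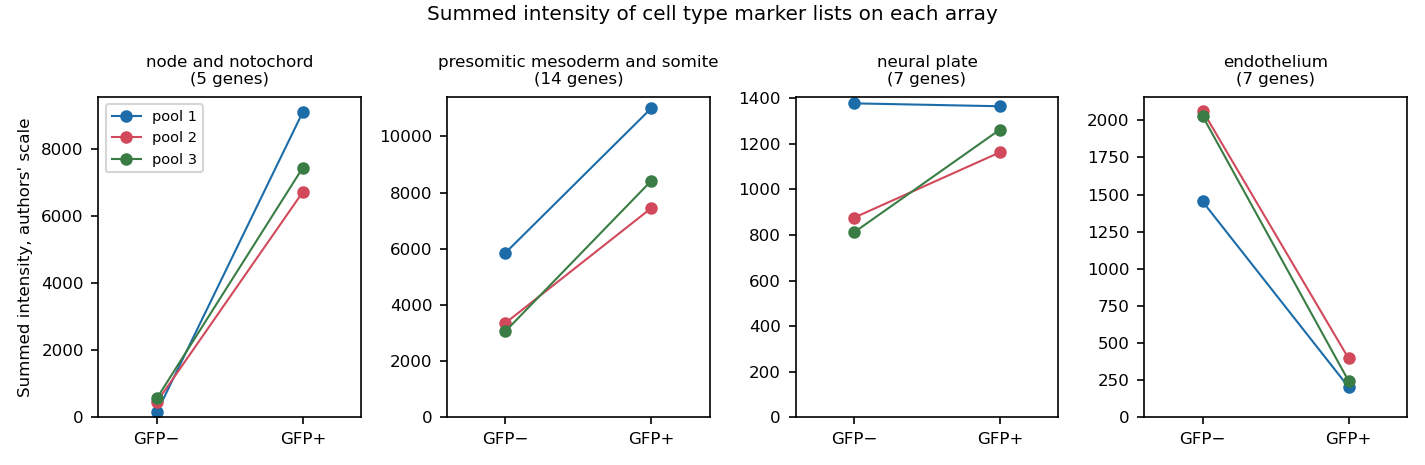
Summed intensity, as scaled by the authors, of the measured genes of 4 marker lists on each array; each point is 1 array and lines join the arrays of a pool. Node and notochord and presomitic sums are higher on all 3 GFP-positive arrays, endothelial sums lower, and neural plate sums overlap through the GFP-negative array of pool 1.

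**Figure D5:**
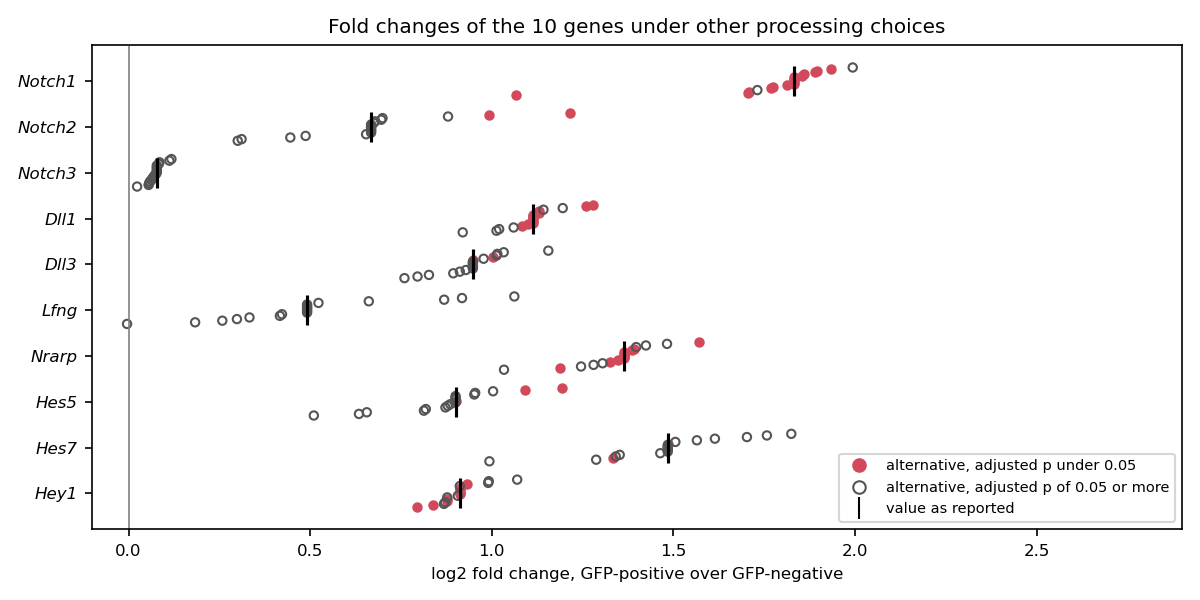
Log2 fold changes of the 10 genes under 18 other processing choices each, with filled points where the adjusted p was under 0.05; the black mark is the value as reported. All values of 9 genes lie above 0 and only Lfng reaches 0, while the side of the threshold changes for 8 genes, all but Notch3 and Lfng.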

How the data were processed

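Total RNA of 6 sorted cell samples, 3 in each group, was amplified in both rounds of a labelling kit and hybridised to 1-colour arrays with a biotin label, per the labels' protocols. The deposited values are intensities on a linear scale, made by the authors with GCOS 1.4 per the submitters' processing notes; the values themselves show a mean, trimmed by 2% at each end, of 150 on all 6 arrays. Array medians were 19.8 to 28.0, detection calls were not used here, and precision is limited by having 3 arrays a group. The genome build is not given in the sources used here.

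The platform annotation gave 34945 probe sets 1 symbol, 932 several and 9160 none, and 64 were controls; all 10 genes matched the RefSeq table by gene identifier. All sample columns were used, leaving 0. Probe sets at or above the 40th percentile of their array on at least 3 arrays were kept (27821). On log2(intensity + 32), limma 3.58.1 was run (lmFit, then eBayes with its trend option) with no term but the group. For each gene the brightest kept probe set by mean was used. Benjamini-Hochberg adjustment was over 12628 genes with a threshold of 0.05, or over all kept probe sets where so said.

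The labels give arrays of 1 number the same embryos, which pairs them; deviations from group means correlated at 0.542, 0.286 and 0.436 within pools, and at -0.523 to 0.380 between pools, where pools 2 and 3 gave 0.279 and 0.380. The pairing rests on the labels. The fit with the pool as a block is therefore given for named genes and counts that it changes. Alternatives were the offset, quantile normalization, the filter, the variance trend, the block, the mean over probe sets, each array and each pool left out, and, chosen after seeing the data, variances estimated over genes only. Genes named from the wider list are the 2 with the smallest p in each role where none passed, and those called with the block, chosen after their values were seen; further genes are named where a count or comparison turns on them. The 10 genes and all lists were chosen with earlier results of these data known. The fit was tested on simulated data. The planned comparison of protein sequences was not made here. Software was R 4.3.3 and Python 3.11.15.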

Additional observations from a re-analysis of the deposited data

How the results depend on the processing

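Of the 10 genes, 9 kept their direction under all 18 alternatives each, and Lfng ran from -0.0040 (without the GFP-negative array of pool 1) to 1.06 (without that of pool 3) and passed in none. The count of the 10 called higher was 3 or 4 under 8 of the alternatives that kept all arrays and 7 with the pool as a replicate block. Leaving out arrays or pools gave 0 (without pool 2 or 3) to 8 (without pool 1) higher and 0 lower. Over all genes, the block gave 1061 higher and 854 lower, and no filter gave 92 lower. Without single arrays or pools the counts ran from 3 to 2296 higher and from 0 to 2100 lower. In the wider list, the block gave 4 higher and 2 lower, and the mean over probe sets 1 higher. Leave-outs gave 0 to 7 higher and 0 to 8 lower there. The cause of these shifts was not tested; fits without pools or arrays use fewer samples. The block ended no call among the 10. Estimating variances over genes only, chosen after seeing the data, gave 372 and 216 genes and 4 of the 10. Probe sets with values near the array medians (of Lfng and the dimmer ones of Notch2 and Notch3) limit what these arrays can show.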
